A study of Mus musculus with 80 samples.

Results

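The transcripts of 9 matrix protease and inhibitor genes were followed in mouse livers after a single injection of carbon tetrachloride (CCl4), a solvent that kills hepatocytes around the central veins. The genes were the matrix metalloproteinases (MMPs) Mmp2, Mmp9, Mmp12, Mmp13, Mmp14 and Mmp19 and the tissue inhibitors of metalloproteinases Timp1, Timp2 and Timp3, taken by symbol. All 9 were among the 14560 genes of the deposited table. Poly(A) RNA of livers from 8-week-old C57BL/6J females was sequenced as stranded libraries on a NovaSeq. Mice were Adamts12-/- (knockout) or wild type; Adamts12 encodes a secreted metalloproteinase of the ADAMTS family, and which stretch of the gene the knockout line lacks was not given. Each genotype received CCl4 by the intraperitoneal route (0.3 ml per kg, at 3% by volume in olive oil) or olive oil alone, called vehicle, with collection 4 h, 12 h, 24 h or 7 days later. That made 16 groups of 5 livers, each mouse contributing 1 library, and untreated mice were not among the groups.

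MMPs are zinc-dependent endopeptidases that are made as inactive proenzymes and cut collagens, elastin, laminin and other proteins outside the cell. Mmp13 is the main interstitial collagenase of rodents, Mmp12 is the elastase of macrophages, Mmp2 and Mmp9 are the gelatinases, Mmp14 is anchored in the cell membrane, and Mmp19 cuts basement membrane proteins. TIMPs bind the active site of MMPs, and proMmp2 is activated on the cell surface by Mmp14 in a complex with Timp2. In the liver, stellate cells are a known source of Mmp2 and Timp1, and macrophages a known source of Mmp12, Mmp13 and Mmp9 during injury and its resolution.

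Mmp13 and Mmp12 are neighbours on mouse chromosome 9, in the cluster of MMP genes, and they were the members that moved furthest after CCl4. In GRCm38 with the GENCODE M21 annotation, Mmp13 spans chr9:7272514-7283331 and Mmp12 spans chr9:7344381-7369499, both on the plus strand, with 61049 bases between them. RefSeq promoter windows of 250 bases before to 50 after a start (GRCm38.p6) existed for 6 of the 9 genes, in 7 windows. They were searched on both strands for the AP-1 element, the site of Fos and Jun dimers, as TGACTCA or its reverse complement TGAGTCA. The element was in the window of Mmp13 and in that of 1 of the 2 starts of Mmp12, and in 1709 of all 32851 windows (5.20%). The 120 bases before those starts (chr9:7272394-7272513 and chr9:7347254-7347373, plus strand, 5′ to 3′) are shown because the element lies close to both starts. Capitals mark it.
Mmp13: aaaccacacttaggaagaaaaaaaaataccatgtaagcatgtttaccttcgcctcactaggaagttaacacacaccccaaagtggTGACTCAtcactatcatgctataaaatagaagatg
Mmp12: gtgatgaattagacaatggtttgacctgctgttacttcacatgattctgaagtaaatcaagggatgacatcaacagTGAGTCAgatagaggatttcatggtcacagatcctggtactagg
The first base of the element was 35 bases before the start of Mmp13 and 44 bases before that start of Mmp12. The windows of Mmp14, Timp1, Timp2 and Timp3 and the other start of Mmp12 held neither form. A match in a window is a description of its letters, and binding was not measured.

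Values are normalized counts, that is, reads per gene scaled by the authors for differences in depth. Libraries held 18.6 to 64.5 M counted reads (median 32.7 M), so that 3 reads were worth 1.16 to 6.02 normalized counts. Adamts12 lay between 0.9 and 25.4 (median 6.75) in knockout libraries and between 5.9 and 75.6 (median 18.8) in wild-type libraries. Its mean was lower in the knockout in 8 of 8 conditions. The difference was called in 1 of them (CCl4 at 24 h, log2 difference -2.21 ± 0.45, adjusted p = 0.0423 by limma). It was smallest in CCl4 livers at 12 h, with means of 14.4 in knockout and 15.1 in wild type (-0.32 ± 0.48, adjusted p = 0.855 by limma). The summed level of 10 hepatocyte markers was 1.29 to 6.11 M normalized counts per library. At 12 h and at 24 h, among the libraries used, every CCl4 liver had a lower sum than every vehicle liver of its genotype. In knockout livers at 12 h, CCl4 replicate 5 and vehicle replicate 1 stood with the libraries of the other treatment and were left out, which leaves 78 libraries and 4 livers in each of those groups. In wild-type livers at 24 h, CCl4 replicate 4 stood apart in mesothelial markers and in part of the stellate and fibroblast markers. It had 1013 for Upk3b and 4052 for Des, against 2.1 to 7.9 and 115 to 303 in the other 4 livers. Results on Mmp2 and Timp2 are therefore given with and without it.

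**Figure D1:**
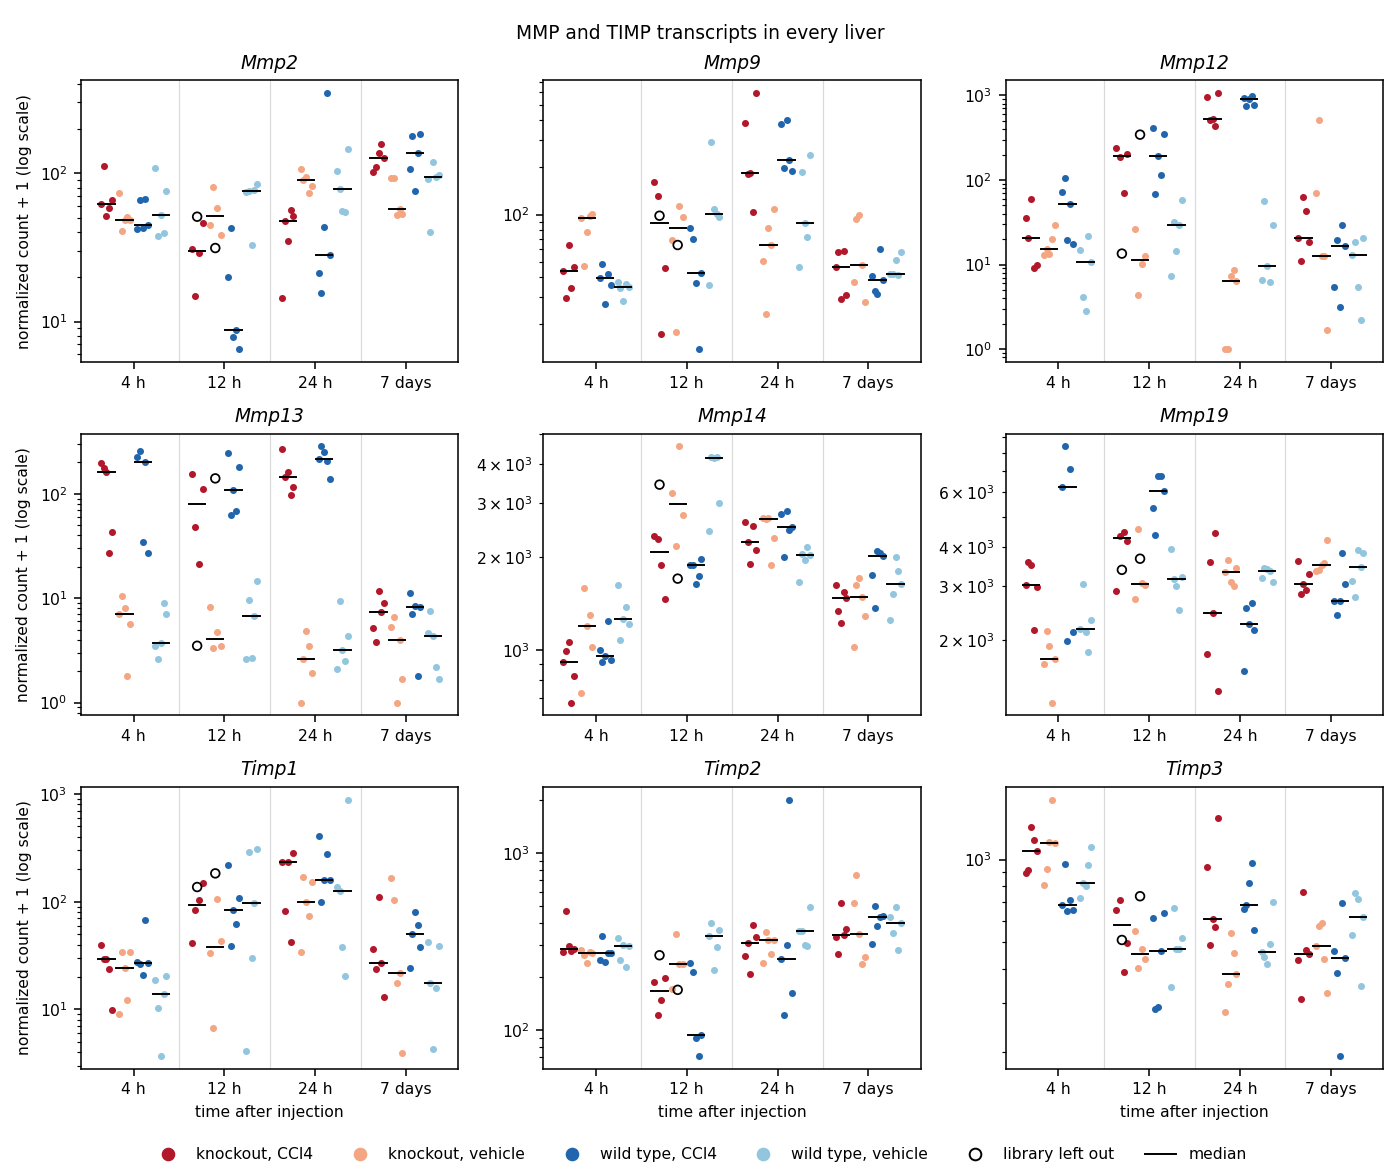
Normalized count plus 1 on a log scale in every library, by gene and by time after injection, with the 4 groups of each time side by side; bars are medians over the libraries used, and open circles are the 2 libraries left out. Mmp12 and Mmp13 stand highest above vehicle at 24 h, and Mmp19 and Mmp14 have the highest counts.

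The 9 transcripts were present at very different levels. Per kilobase of annotated exon, median levels in wild-type CCl4 livers at 24 h were 639 for Mmp19, 421 for Mmp14, 179.5 for Timp1, 126 for Mmp12, 83.5 for Timp3, 79.9 for Mmp13, 64.6 for Timp2, 62.8 for Mmp9 and 8.04 for Mmp2. In wild-type vehicle livers at that time the medians were 949 for Mmp19, 340 for Mmp14, 141 for Timp1, 92.3 for Timp2, 56.7 for Timp3, 24.6 for Mmp9, 22.9 for Mmp2, 1.2 for Mmp12 and 0.81 for Mmp13. In knockout CCl4 livers at 24 h, Timp2 stood at 79.6, Timp3 at 74.4, Mmp12 at 71.7, Mmp13 at 53.9, Mmp9 at 51.6 and Mmp2 at 13.9, against 81.9, 47.0, 0.75, 0.60, 17.9 and 26.4 for the same genes in knockout vehicle livers. Mmp12 and Mmp13 had the lowest medians of the 9 in vehicle livers of both genotypes, and Mmp2 had the lowest in CCl4 livers of both. By median, Timp2 lay below Mmp12 and Mmp13 in wild-type CCl4 livers and above them in knockout CCl4 livers, with ranges that overlapped. In wild type, Timp2 ran from 30.8 to 514, Mmp12 from 103 to 135 and Mmp13 from 51.0 to 106. In knockout they ran from 53.2 to 99.9, from 60.3 to 147 and from 36.3 to 99.3. Counting per exon length assumes that reads cover the annotated exons alike in all groups.

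In knockout livers at 4 h, CCl4 changed 2 of the 9 transcripts, both higher; 38.8% of all 14558 genes tested were called there, 21.1% higher and 17.7% lower. In wild-type livers at 4 h it changed 3, all higher, where 43.6% of genes were called, 23.1% higher and 20.5% lower. At 12 h, 2 members were higher and 1 lower in knockout (46.7% of genes called, 23.6% higher and 23.1% lower), and 3 were higher and 4 lower in wild type (58.4%, 29.0% higher and 29.4% lower). At 24 h, 4 were higher and 1 lower in knockout (44.1%, 21.1% higher and 23.0% lower), and 3 were higher and 1 lower in wild type (51.2%, 26.2% higher and 25.0% lower). At 7 days none was called in either genotype by limma (0.694% of genes in knockout, 0.309% higher and 0.385% lower, and 0.0550% in wild type, 0.0275% higher and 0.0275% lower). A call is an adjusted p under 0.05 from limma fitted over all 16 groups on log2 of the normalized count plus 1, adjusted over all genes tested; changes below are log2 changes on that scale, CCl4 over vehicle, ± SE. With so many genes called, the count of members called is no result about these 9. Their median change at 4 h, 12 h, 24 h and 7 days was 0.27, 0.25, 0.62 and 0.03 in knockout, and 0.15, -0.16, 0.55 and 0.18 in wild type, over members that went both ways. The median over all genes tested lay between -0.05 and 0.04 in these 8 comparisons. Groups without overlap were common among all genes tested. At 4 h, 12 h and 24 h, every CCl4 liver was above every vehicle liver of its genotype for 10.1% to 21.4% of genes. For 12.5% to 17.5% of genes every CCl4 liver was below every vehicle liver. At 7 days these shares were 1.13% to 2.36% and 1.54% to 1.90%. A lack of overlap at the first 3 times thus does not by itself set a member apart.

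**Figure D2:**
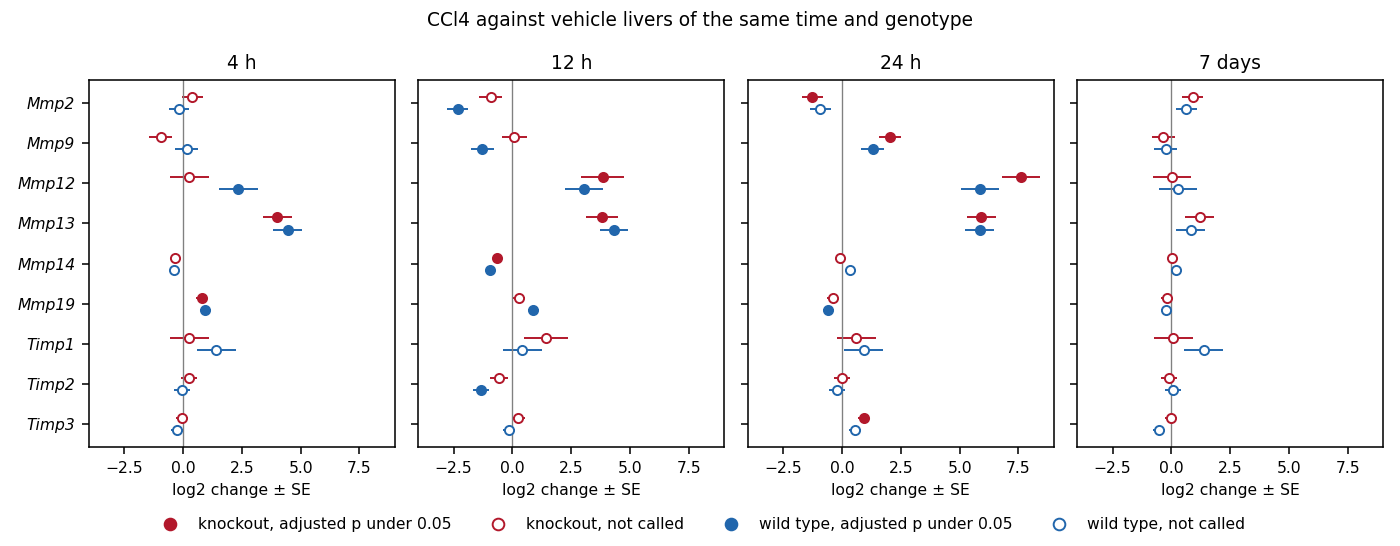
Log2 change, CCl4 over vehicle, of each gene in knockout (red) and wild type (blue) at each time; horizontal bars are ± 1 SE and filled points passed an adjusted p of 0.05 in limma. The changes of Mmp12 and Mmp13 at 24 h, between 5.86 and 7.62, are the furthest from 0, and no point is filled at 7 days.

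Mmp13, the collagenase, was called higher at each of the first 3 times in both genotypes. At 4 h its normalized counts were 196, 175, 159, 26.0 and 42.1 in knockout CCl4 livers, against 6.0, 9.4, 7.1, 0.8 and 4.7 in knockout vehicle livers. In wild type at 4 h they were 223, 255, 33.2, 199 and 26.1 in CCl4 livers, against 2.5, 1.6, 2.7, 8.0 and 6.0 in vehicle livers. Every CCl4 liver was above every vehicle liver of its genotype, and in each genotype 2 CCl4 livers lay far below the other 3. The change was 4.01 ± 0.61 in knockout (adjusted p = 1.31e-07) and 4.45 ± 0.61 in wild type (adjusted p = 6.8e-09).

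At 12 h, Mmp13 stood at 153, 47.0, 20.3 and 111 in knockout CCl4 livers, against 7.2, 2.3, 3.7 and 2.5 in knockout vehicle livers. Wild-type CCl4 livers had 243, 61.9, 107, 66.8 and 179.5, against 1.6, 8.7, 1.7, 5.7 and 13.6 in wild-type vehicle livers. Again the groups did not overlap, with a change of 3.82 ± 0.68 in knockout (adjusted p = 3.65e-06) and 4.31 ± 0.61 in wild type (adjusted p = 1.01e-08). By 24 h the counts were 265, 144, 159.5, 97.1 and 114 in knockout CCl4 livers, against 0.0, 1.6, 3.8, 2.5 and 0.9 in knockout vehicle livers. In wild type they were 214, 284, 249, 207 and 136 with CCl4, against 1.1, 8.4, 2.2, 1.5 and 3.3 with vehicle. These were the changes furthest from 0 for Mmp13, 5.93 ± 0.61 in knockout (adjusted p = 4.06e-12) and 5.86 ± 0.61 in wild type (adjusted p = 3.48e-12), and the lowest CCl4 liver was 25.3 times the highest vehicle liver in knockout and 16.2 times in wild type. Vehicle levels of Mmp13 were at the edge of detection: all 5 knockout and 3 of 5 wild-type vehicle libraries at 24 h held 3 reads or fewer, and with a pseudocount of 8 the changes at 24 h were 4.00 in knockout and 4.32 in wild type.

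Mmp12, the macrophage elastase, was called higher at 12 h and 24 h in both genotypes, and at 4 h in wild type. At 4 h it stood at 34.8, 19.5, 58.5, 8.2 and 8.8 in knockout CCl4 livers, against 12.0, 14.1, 12.4, 18.9 and 28.5 in knockout vehicle livers, and the change was not called (0.27 ± 0.82, adjusted p = 0.832). Wild-type livers at 4 h had 71.7, 105, 18.7, 51.2 and 16.5 with CCl4, against 13.8, 3.1, 1.8, 20.9 and 9.6 with vehicle. That change passed the test (2.35 ± 0.82, adjusted p = 0.0149), although the ranges overlapped; without CCl4 replicate 2 it was 2.02 (adjusted p = 0.0543) and without vehicle replicate 3 it was 1.96 (adjusted p = 0.0605). The livers low for Mmp13 at 4 h, replicates 4 and 5 in knockout and 3 and 5 in wild type, were also the lowest CCl4 livers of their group for Mmp12 and for Mmp19.

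At 12 h Mmp12 rose in both genotypes. Its counts were 239, 184, 68.6 and 201 in knockout CCl4 livers, against 25.4, 3.4, 9.2 and 11.6 in knockout vehicle livers. Wild-type CCl4 livers had 409, 66.4, 189, 115 and 349, against 6.3, 31.3, 13.3, 28.6 and 57.6 in wild-type vehicle livers. The groups did not overlap in either genotype, and the change was 3.84 ± 0.91 in knockout (adjusted p = 0.000368) and 3.03 ± 0.82 in wild type (adjusted p = 0.00115). At 12 h, CCl4 livers stood wholly above vehicle livers for 18.6% of all genes in knockout and 21.4% in wild type. With all 80 libraries under their labels, the change in knockout at 12 h was 2.14 for Mmp12 (adjusted p = 0.0899) and 1.99 for Mmp13 (adjusted p = 0.0538).

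At 24 h Mmp12 was at 966, 513, 519, 436 and 1063 in knockout CCl4 livers, against 0.0, 0.0, 6.4, 7.6 and 5.4 in knockout vehicle livers. In wild type it was at 921, 747, 910.0, 976 and 769 with CCl4, against 5.5, 56.2, 8.7, 5.3 and 28.5 with vehicle. The lowest CCl4 liver was 57.4 times the highest vehicle liver in knockout and 13.3 times in wild type, with a change of 7.62 ± 0.82 (adjusted p = 1.86e-11) and of 5.88 ± 0.82 (adjusted p = 1.46e-08). With a pseudocount of 8 these were 5.86 in knockout and 5.21 in wild type. Vehicle libraries at 24 h held 0 to 6 reads of Mmp12 in knockout and 5 to 67 in wild type. The sizes in knockout thus rest on a vehicle level at the edge of detection. In knockout, the CCl4 effect on Mmp12 was higher at 12 h than at 4 h by 3.57 ± 1.22 (adjusted p = 0.0281), a call lost without any one of 4 livers (3.13 to 3.45, adjusted p 0.0531 to 0.0709). The step between 12 h and 24 h was 3.78 ± 1.22 in knockout and not called (adjusted p = 0.0549); in wild type the step between 12 h and 24 h was 2.85 ± 1.15 (adjusted p = 0.0901). No step of Mmp13 before 24 h was called (adjusted p 0.176 to 0.921).

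Markers of infiltrating and lipid-handling macrophages were higher at 24 h. Of 14 such genes, 12 were higher in knockout and 10 in wild type at 24 h (21.1% and 26.2% of all genes). None was lower (23.0% and 25.0% of all genes). Gpnmb, a glycoprotein of lipid-laden macrophages, averaged 758 ± 564 in knockout CCl4 livers and 7.6 ± 4.5 in knockout vehicle livers (SD, n = 5 each), a change of 6.27 ± 0.96 (adjusted p = 2.7e-07). Lgals3 (galectin 3) averaged 5263 with CCl4 and 210.0 with vehicle in knockout (3.94 ± 0.49, adjusted p = 1.8e-09), and 8348 with CCl4 and 450.1 with vehicle in wild type (4.09 ± 0.49, adjusted p = 3.7e-10). The summed level of the list was 10676 to 32753 in knockout CCl4 livers, against 4190 to 10260 in knockout vehicle livers, and 27562 to 41833 in wild-type CCl4 livers, against 6461 to 14478 in wild-type vehicle livers; no listed gene was at 0 in these libraries. Within the knockout CCl4 livers at 24 h, replicates 1 and 5 had both the highest sums (30047 and 32753) and the highest Mmp12. At 12 h, where Mmp12 had risen in both genotypes, 5 of the 14 were higher and none lower in knockout (23.6% and 23.1% of all genes). In wild type, 4 were higher and 1 lower (29.0% and 29.4% of all genes). The 1 was Fabp5, a fatty acid binding protein (-1.62 ± 0.50, adjusted p = 0.0044). The sums at 12 h overlapped, at 10220 to 19654 in knockout CCl4 livers against 5550 to 16025 in knockout vehicle livers, and 9832 to 21290 in wild-type CCl4 livers against 10492 to 25721 in wild-type vehicle livers. At 4 h, where Mmp13 had already risen, 1 of the 14 was higher in knockout and 2 in wild type (21.1% and 23.1% of all genes). Kupffer cell markers, for the resident macrophages, went the other way at 12 h. Of these, 7 of 12 were lower in knockout and 9 of 12 in wild type (23.1% and 29.4% of all genes). Whole liver was sequenced, so that a change in the number of cells of a type cannot be told apart from a change in RNA per cell, and the part of macrophages in the Mmp12 result was not tested.

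Mmp9, the gelatinase of neutrophils and macrophages, rose at 24 h. Its counts were 380, 181, 183, 103.5 and 592 in knockout CCl4 livers, against 49.5, 22.3, 80.7, 63.3 and 107 in knockout vehicle livers. Only the lowest CCl4 liver fell within the vehicle range, and the change was 2.04 ± 0.48 (adjusted p = 0.000387). Wild-type CCl4 livers had 374.5, 195.5, 397, 222 and 188, against 45.4, 186, 87.1, 70.7 and 239 in wild-type vehicle livers, a change of 1.31 ± 0.48 (adjusted p = 0.0186). The wild-type call was lost without any one of CCl4 replicates 1 or 3 or vehicle replicates 1 or 4 (1.01 to 1.18, adjusted p 0.051 to 0.0888). Of the 5 wild-type vehicle mice at 24 h, 4 had numbers below 7000 in the labels and no CCl4 mouse of that time did; without the 12 wild-type libraries so numbered, which leaves 1 vehicle liver there, the change was 0.13 (adjusted p = 0.933).

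Neutrophil markers were mixed beside Mmp9. Of 12 listed genes 8 were in the table, and at 24 h the receptors Csf3r and Cxcr2 were the 2 that rose in each genotype. Of all genes, 21.1% were higher there in knockout and 26.2% in wild type. Csf3r averaged 335 ± 150.3 with CCl4 and 87.5 ± 41.3 with vehicle in knockout, and 339 ± 66.1 with CCl4 and 161 ± 53.9 with vehicle in wild type (SD, n = 5 each). The precursor granule gene Elane was lower in knockout (-1.67 ± 0.61, adjusted p = 0.021). The summed level of the 8 genes, which include the acute-phase gene Lcn2 that hepatocytes also make, was 4212 to 111319 in knockout CCl4 livers against 63815 to 145444 in knockout vehicle livers, and 32892 to 89434 in wild-type CCl4 livers against 58698 to 99668 in wild-type vehicle livers. Their part in the Mmp9 result was not tested.

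At 4 h no change of Mmp9 was called. It stood between 28.4 and 62.6 in knockout CCl4 livers, against 45.9 to 99.6 in knockout vehicle livers (-0.94 ± 0.48, adjusted p = 0.115, and 0.00253 in a fit of that time alone), and between 25.9 and 47.3 in wild-type CCl4 livers, against 27.0 to 36.4 in wild-type vehicle livers (0.15 ± 0.48, adjusted p = 0.835). At 12 h wild-type CCl4 livers had 81.0, 68.6, 35.9, 12.9 and 41.6, against 34.6, 287, 107.5, 99.2 and 95.0 in wild-type vehicle livers, and Mmp9 was called lower (-1.28 ± 0.48, adjusted p = 0.0185). That call rested on single livers: without CCl4 replicate 4 the change was -0.89 (adjusted p = 0.12) and without vehicle replicate 2 it was -0.91 (adjusted p = 0.112), and a fit of that time alone gave an adjusted p of 0.11. In knockout at 12 h the change was 0.09 ± 0.54 (adjusted p = 0.914). The step in the wild-type CCl4 effect between 12 h and 24 h was 2.60 ± 0.68 (adjusted p = 0.00686). It was 1.99 without the mice numbered below 7000, a fit that leaves out 4 of the 5 wild-type vehicle livers of 24 h.

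Mmp2, the gelatinase of stellate cells and fibroblasts, fell in wild type at 12 h and in knockout at 24 h. At 12 h its counts were 29.7, 13.9, 28.0 and 45.0 in knockout CCl4 livers, against 43.5, 80.3, 57.0 and 37.1 in knockout vehicle livers, a change of -0.93 ± 0.50 that was not called (adjusted p = 0.12). In wild-type CCl4 livers they were 19.0, 41.7, 6.9, 7.7 and 5.5, against 73.9, 74.7, 31.7, 76.3 and 83.1 in wild-type vehicle livers. Mmp2 fell there by 2.33 ± 0.45 on the log2 scale (adjusted p = 9.09e-06), with one CCl4 liver inside the vehicle range. At 24 h knockout CCl4 livers had 13.4, 46.9, 34.1, 55.5 and 50.6, against 105.5, 89.1, 93.5, 72.2 and 80.4 in knockout vehicle livers; the groups did not overlap and Mmp2 fell by 1.25 ± 0.45 (adjusted p = 0.0182), a call lost without CCl4 replicate 1 (-0.91, adjusted p = 0.109) and in a fit of that time alone (adjusted p = 0.107).

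In wild type at 24 h, Mmp2 stood at 20.1, 14.5, 42.6, 346 and 27.1 in CCl4 livers, against 101.9, 77.1, 54.4, 53.4 and 144 in vehicle livers. With all 5 CCl4 livers the change was -0.93 ± 0.45 and not called (adjusted p = 0.0736), while without replicate 4, which held the value of 346, it was -1.69 (adjusted p = 0.000163). At 7 days Mmp2 was at 101.6, 109, 136, 155 and 126 in knockout CCl4 livers, all above the 91.2, 92.2, 51.5, 56.3 and 51.7 of knockout vehicle livers, but the change of 0.90 ± 0.45 was not called (adjusted p = 0.385). The effect at 7 days was above that at 24 h by 2.15 ± 0.63 in knockout (adjusted p = 0.00672) and by 1.57 ± 0.63 in wild type (adjusted p = 0.0422), the wild-type step being lost without any one of 10 livers (1.20 to 1.57, adjusted p 0.0532 to 0.128). Without wild-type CCl4 replicate 4 of 24 h that step was 2.32 (adjusted p = 0.000287).

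**Figure D3:**
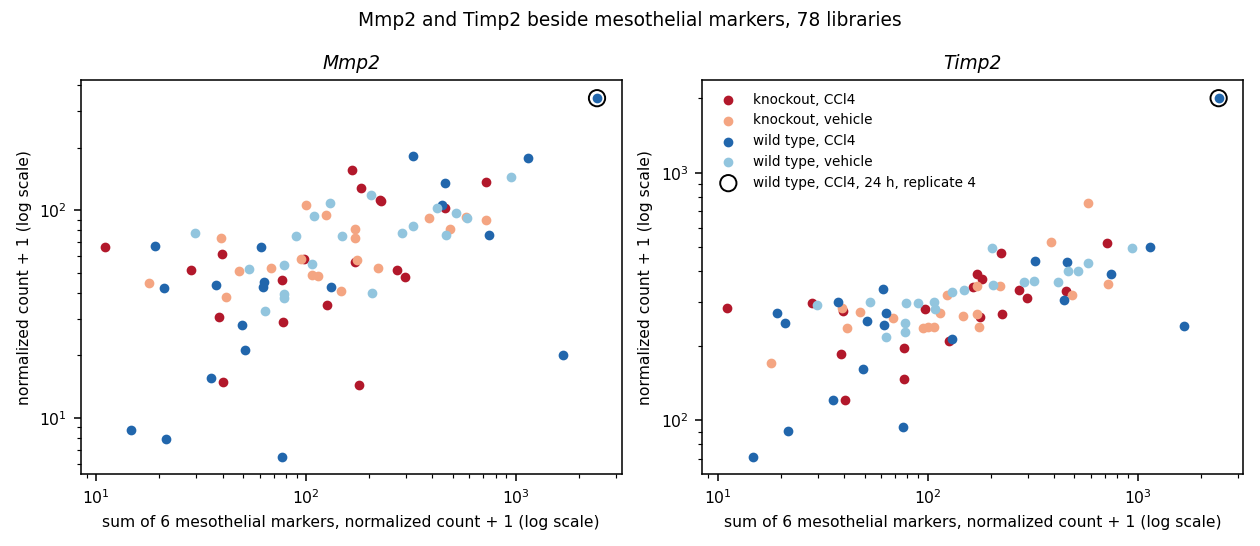
Mmp2 (left) and Timp2 (right) against the summed level of 6 mesothelial markers in 78 libraries, both as normalized count plus 1 on log scales, with points coloured by group. The circled library, wild-type CCl4 at 24 h, replicate 4, is highest on both axes, at 346 for Mmp2, 2002 for Timp2 and 2432 for the markers.

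Timp2, the TIMP that takes part in proMmp2 activation, had a Pearson r of 0.887 with Mmp2 over the 16 group means, which share the same libraries for both genes, and of 0.915 without wild-type CCl4 replicate 4 of 24 h. It stood at 185, 120.2, 146 and 195 in knockout CCl4 livers at 12 h, against 169, 348, 235.5 and 235 in knockout vehicle livers (-0.59 ± 0.38, adjusted p = 0.203). In wild type at 12 h it was at 239, 211, 89.3, 70.3 and 93.0 with CCl4, against 336, 399.5, 217, 292 and 365 with vehicle, and fell by 1.34 ± 0.34 (adjusted p = 0.000606). At 24 h it was at 261.5, 310.0, 207, 389 and 334 in knockout CCl4 livers, against 236, 355, 319, 267 and 320.5 in knockout vehicle livers, a change of -0.01 ± 0.34 (adjusted p = 0.977). Wild-type CCl4 livers at 24 h had 252, 119.9, 299, 2002 and 161, against 362, 359.7, 299, 298 and 496 in wild-type vehicle livers; the change was -0.20 ± 0.34 with replicate 4 (adjusted p = 0.649) and -0.87 without it (adjusted p = 0.00444).

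Mesothelial and fibroblast genes stood beside these values. The sum of 6 mesothelial markers was 125 to 296 in knockout CCl4 livers at 24 h, against 98.9 to 722 in knockout vehicle livers. In wild type at 24 h it was 34.4 to 2432 with CCl4, against 77.5 to 944 with vehicle. In CCl4 replicate 4, Msln was at 406, Acta2 at 1657 and Dpt at 776, against 5.3 to 11.9, 29.0 to 253 and 14.5 to 57.0 in the other 4 livers. Tagln, Pdgfrb, Postn and Cygb were also highest in that liver. The stellate genes Lrat and Hand2 were lowest there, at 266 (others 330 to 487) and 53.5 (others 56.5 to 131). Reln, Pdgfra, Ngfr, Rgs5 and Colec11 lay within the range of the others. At 12 h, wild-type CCl4 replicate 1 had a sum of 1668, its Mmp2 was 19.0 and its Timp2 was 239. Of 14 stellate and myofibroblast markers, none was higher at 12 h in either genotype (23.6% of all genes in knockout and 29.0% in wild type). At that time 2 were lower in knockout and 3 in wild type (23.1% and 29.4% of all genes). Of 12 sinusoidal endothelial markers, 6 were lower in knockout and 12 in wild type at that time (23.1% and 29.4% of all genes). How far these cells enter the results on Mmp2 and Timp2 was not tested.

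Mmp14, the membrane-type MMP that activates proMmp2, showed its widest changes in vehicle livers over time. Knockout vehicle livers had medians of 1197 at 4 h, 2980 at 12 h, 2661 at 24 h and 1485 at 7 days. Wild-type vehicle livers had medians of 1260.2 at 4 h, 4186 at 12 h, 2026 at 24 h and 1633 at 7 days. The difference between the 4 times was called in both genotypes (F test in limma, adjusted p = 4.07e-10 in knockout and 3.77e-09 in wild type). Such drift between vehicle groups was called for 4 of the 9 genes in each genotype (41.7% of all genes in knockout and 38.9% in wild type): Mmp14 and Timp3 in both, Mmp12 and Mmp19 in knockout, and Mmp9 and Timp1 in wild type.

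Against this vehicle level, Mmp14 was lower after CCl4 at 12 h. It stood at 2338, 2289.9, 1879 and 1464 in knockout CCl4 livers, against 3228, 2168, 4572 and 2732 in knockout vehicle livers (-0.64 ± 0.19, adjusted p = 0.00316), and with all 80 libraries under their labels the change was -0.31 (adjusted p = 0.233). In wild type it was at 1879, 1878, 1633, 1734 and 1975 with CCl4, against 2438, 4208, 4186, 4208 and 2986 with vehicle, with no overlap (-0.95 ± 0.17, adjusted p = 1.39e-06). The same wild-type CCl4 livers at 12 h nevertheless all lay above the wild-type CCl4 livers at 4 h, which had 915 to 1241. At 24 h the changes were -0.10 ± 0.17 in knockout (adjusted p = 0.653) and 0.35 ± 0.17 in wild type (adjusted p = 0.0743; 0.0307 in a fit of that time alone, and 0.48 with an adjusted p of 0.0167 after quantile normalization). The wild-type effect at 24 h exceeded that at 12 h by 1.30 ± 0.24 (adjusted p = 7.79e-05). At 4 h Mmp14 was not called (-0.36 ± 0.17 in knockout, adjusted p = 0.0811, and -0.38 ± 0.17 in wild type, adjusted p = 0.0602), and quantile normalization moved it past the threshold in both (-0.51 in knockout and -0.59 in wild type).

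Mmp19, the most abundant of the 9 per kilobase, rose at 4 h in both genotypes. At 4 h it stood at 3011, 3574, 3506, 2167 and 2974 in knockout CCl4 livers, against 1678, 2143, 1914, 1262 and 1743 in knockout vehicle livers (0.80 ± 0.23, adjusted p = 0.00458). In wild type it was at 6220, 8424, 1991, 7129 and 2123 with CCl4, against 2178, 3030, 2124, 1839.7 and 2331 with vehicle (0.94 ± 0.23, adjusted p = 0.00069). The wild-type CCl4 livers were split, 3 of them above every vehicle liver and replicates 3 and 5 within the vehicle range. At 12 h it was at 2877, 4331, 4479 and 4188 in knockout CCl4 livers, against 2720, 4579, 3052 and 3007 in knockout vehicle livers (0.26 ± 0.26, adjusted p = 0.44). In wild type it rose at 12 h, with 5332, 4371, 6786, 6750 and 6034 in CCl4 livers against 3943, 3164, 3002, 2510 and 3201 in vehicle livers (0.88 ± 0.23, adjusted p = 0.000993).

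At 24 h the values of Mmp19 spread widely in knockout, with 1814, 3582, 2443, 4447 and 1370.5 in CCl4 livers against 3317, 3642, 3083, 3004 and 3431 in vehicle livers (-0.40 ± 0.23, adjusted p = 0.167; -0.61 without CCl4 replicate 4, adjusted p = 0.0325). Wild-type CCl4 livers had 1594, 2546, 2258, 2646 and 2154, all below the 3168, 3412, 3402, 3351 and 3089.8 of wild-type vehicle livers. There Mmp19 fell by 0.57 ± 0.23 (adjusted p = 0.0358), a call lost without any one of 6 livers (-0.46 to -0.58, adjusted p 0.0502 to 0.123) and that quantile normalization also ended (-0.45). The step in the CCl4 effect between 12 h and 24 h was -0.66 ± 0.35 in knockout, not called (adjusted p = 0.299), and -1.46 ± 0.33 in wild type (adjusted p = 0.00181). Without the mice numbered below 7000, the change in wild type at 24 h was -0.49 and this step was -1.54. That fit leaves out 4 of the 5 wild-type vehicle livers of 24 h.

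Timp3, the TIMP that is bound to the matrix, rose in knockout at 24 h. It was at 937, 488, 606, 569.6 and 1411 in knockout CCl4 livers, against 277, 352, 541, 457 and 383 in knockout vehicle livers (0.92 ± 0.25, adjusted p = 0.0023). Replicates 1 and 5, the livers with the highest Mmp12 and Mmp9, also had the highest Timp3 and the lowest Mmp19. In wild type Timp3 stood at 659.6, 680.3, 818.5, 968 and 555.5 with CCl4, against 462, 439, 416, 493 and 702 with vehicle; the change was 0.55 ± 0.25 and not called (adjusted p = 0.0623), and 0.68 without vehicle replicate 5 (adjusted p = 0.0291). Vehicle livers themselves had medians of 1150 at 4 h, 453 at 12 h, 383 at 24 h and 483 at 7 days in knockout, and of 819 at 4 h, 473 at 12 h, 462 at 24 h and 618 at 7 days in wild type. No change of Timp3 with CCl4 was called at 4 h or 12 h (adjusted p 0.425 to 0.893).

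Timp1, the soluble TIMP that is a common read-out of stellate cell activation, was called at no time in either genotype. Its counts at 24 h were 232, 80.5, 231, 41.6 and 280.5 in knockout CCl4 livers, against 33.0, 167, 97.4, 72.2 and 151 in knockout vehicle livers (0.62 ± 0.83, adjusted p = 0.573). In wild type they were 410.3, 99.3, 159, 277 and 159 with CCl4, against 137, 125, 37.0, 19.6 and 886 with vehicle (0.92 ± 0.83, adjusted p = 0.36). In wild type the vehicle range was wider than the CCl4 range and enclosed it. At 4 h all wild-type CCl4 livers, at 19.7 to 66.3, were above all wild-type vehicle livers, at 2.7 to 19.2, without a call (1.42 ± 0.83, adjusted p = 0.164, and 0.0195 in a fit of that time alone). With an SE of 0.83, the interval of the wild-type change at 24 h ran from -0.73 to 2.57, so that sizeable changes in either direction remain possible. Wild-type vehicle livers themselves differed between times (F test, adjusted p = 0.00338), with medians of 12.9 at 4 h, 97.3 at 12 h, 125 at 24 h and 16.7 at 7 days.

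**Figure D4:**
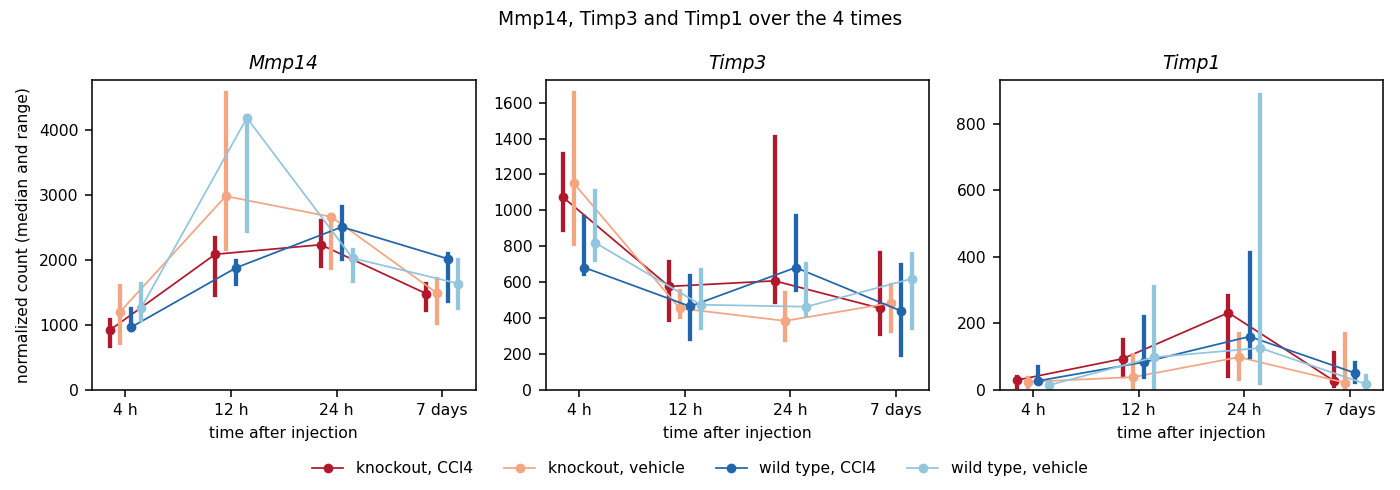
Normalized count of Mmp14, Timp3 and Timp1 at 4 h, 12 h, 24 h and 7 days; points joined by lines are group medians and vertical bars run from the lowest to the highest library used. The vehicle medians of Mmp14 peak at 12 h in both genotypes, at 2980 in knockout and 4186 in wild type, and those of Timp3 are highest at 4 h.

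At 7 days after CCl4 no member was called in either genotype by limma, and the intervals still allowed changes. In each genotype 1 member had an unadjusted p under 0.05, Mmp2 in knockout and Timp3 in wild type. Of all 14558 genes tested, 1839 had such a p in knockout and 2462 in wild type. Mmp12 was at 19.8, 10.1, 61.8, 41.5 and 17.3 in knockout CCl4 livers, against 69.4, 517, 11.6, 11.8 and 0.7 in knockout vehicle livers, and at 4.4, 18.7, 2.2, 28.0 and 15.4 in wild-type CCl4 livers, against 12.1, 17.6, 4.4, 1.2 and 19.8 in wild-type vehicle livers. Mmp13 lay between 2.8 and 10.6 in knockout CCl4 livers, against 0.0 to 5.6 in knockout vehicle livers, and between 0.8 and 10.2 in wild-type CCl4 livers, against 0.7 to 6.5 in wild-type vehicle livers. The CCl4 effect at 7 days was below that at 24 h for Mmp12 by -7.59 ± 1.15 in knockout (adjusted p = 8.47e-07) and -5.59 ± 1.15 in wild type (adjusted p = 0.000107), and for Mmp13 by -4.73 ± 0.86 in knockout (adjusted p = 2.32e-05) and -5.04 ± 0.86 in wild type (adjusted p = 5.17e-06). Without the mice numbered below 7000 the wild-type steps were -3.48 for Mmp12 and -3.94 for Mmp13. That fit leaves out 4 of the 5 wild-type vehicle livers of 24 h and 4 of the 5 wild-type CCl4 livers of 7 days.

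Across the 4 times, the CCl4 effect varied for 5 of 9 genes in knockout (51.7% of all genes) and for 8 of 9 in wild type (62.9% of all genes). The 5 in knockout were Mmp2, Mmp9, Mmp12, Mmp13 and Mmp19, and Timp1 was the exception in wild type (F test in limma, adjusted p = 0.83). Of the steps between neighbouring times, that between 4 h and 12 h was called for 1 gene in knockout, Mmp12 (22.1% of all genes). In wild type that step was called for Mmp2 (-2.16 ± 0.63, adjusted p = 0.00641) and Timp2 (-1.31 ± 0.48, adjusted p = 0.0317 by limma). There 30.6% of all genes were called. The Timp2 step was lost without any one of 7 livers (-1.10 to -1.25, adjusted p 0.0515 to 0.0816). In the step between 12 h and 24 h none was called in knockout by limma (5.06% of all genes called). At an unadjusted p under 0.05 there were 4 members in that step, and 2821 of all 14558 genes tested. In wild type, Mmp9, Mmp14 and Mmp19 were called in the step between 12 h and 24 h (12.6% of all genes called). The step between 24 h and 7 days was called for 5 genes in knockout (30.0% of all genes) and 4 in wild type (38.4%), Timp3 among them with -0.93 ± 0.36 in knockout (adjusted p = 0.0403) and -1.06 ± 0.36 in wild type (adjusted p = 0.015). Those calls of Timp3 were lost without any one of 12 knockout livers (-0.70 to -0.94, adjusted p 0.0505 to 0.135) and without wild-type CCl4 replicate 3 of 7 days (-0.80, adjusted p = 0.0659). Without the mice numbered below 7000 the wild-type step was -0.33. That fit leaves out 4 of the 5 wild-type vehicle livers of 24 h and 4 of the 5 wild-type CCl4 livers of 7 days.

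In limma over all 16 groups, no difference between knockout and wild type was called for any of the 9 transcripts. The difference of the CCl4 effect, knockout minus wild type, was called for 0 of 9 at each time by limma. Of all genes, 0.00687%, 0%, 0% and 0.00687% were called at 4 h, 12 h, 24 h and 7 days. At an unadjusted p under 0.05 there were 0, 1, 0 and 0 members at these times. Of all 14558 genes tested, 682, 410, 694 and 1638 had such a p. The 1 member was Mmp2 at 12 h, whose effect was 1.40 ± 0.67 higher in knockout (interval 0.06 to 2.73). Direct comparisons of knockout with wild type called 0 of 9 in CCl4 livers and 0 of 9 in vehicle livers. Of all genes, 0.584%, 0.0206%, 0.0137% and 0% were called in CCl4 livers at the 4 times (0.213% higher and 0.371% lower at 4 h). In vehicle livers 0.343%, 0%, 0% and 0.0550% were called (0.0618% higher at 4 h). At an unadjusted p under 0.05 there were 2, 2, 0 and 1 members in CCl4 livers at the 4 times. Of all 14558 genes tested, 1282, 1381, 987 and 1051 had such a p there. In vehicle livers 1, 0, 1 and 0 members had such a p, and 1389, 506, 1231 and 1186 of all genes. In vehicle livers at 4 h Mmp9 was at 94.2, 45.9, 75.9, 96.6 and 99.6 in knockout, all above the 36.4, 33.0, 27.0, 35.3 and 33.6 of wild type, with a difference of 1.25 ± 0.48 (adjusted p = 0.302). In a limma fit of that time alone, this difference was called (adjusted p = 0.0141). In CCl4 livers Mmp19 was lower in knockout by value at 4 h (-0.54 ± 0.23, adjusted p = 0.454) and at 12 h (-0.56 ± 0.25, adjusted p = 0.493). Other members went the other way there, with Timp3 higher in knockout by value at 4 h (0.55) and Mmp2 at 12 h (1.10). Mmp14 was lower by value in knockout CCl4 livers at 7 days (-0.36), and Mmp12 in knockout vehicle livers at 24 h (-2.14).

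These data leave room for genotype effects of some size. The interval of the knockout minus wild-type difference in the CCl4 effect at 24 h ran from -0.56 to 4.05 for Mmp12 and from -1.64 to 1.78 for Mmp13. At 4 h it ran from -4.39 to 0.22 for Mmp12, the time at which that gene was called in wild type and not in knockout. Comparisons of CCl4 with vehicle and of knockout with wild type share livers, so their values are not independent.

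Counts over lists of genes that act beside the MMPs stand against the large share of all genes called after CCl4, which was 38.8%, 46.7% and 44.1% in knockout and 43.6%, 58.4% and 51.2% in wild type at 4 h, 12 h and 24 h. The AP-1 subunits are the family of factors named with the AP-1 element, and 9 were in the table (11 were listed). Of these 9, 6 were higher at 4 h, 4 at 12 h and 5 at 24 h in knockout, where 1 was lower at 24 h. In wild type 6, 4 and 5 were higher, with none lower. Of all genes, 21.1%, 23.6% and 21.1% were higher in knockout at these times, and 23.1%, 29.0% and 26.2% in wild type. Atf3, a stress-induced member, averaged 20505 in knockout CCl4 livers and 213 in knockout vehicle livers at 4 h (6.70 ± 0.58, adjusted p = 2.2e-15), and 14163 with CCl4 and 112 with vehicle in wild type (6.94 ± 0.58, adjusted p = 5e-16). Jun averaged 7578 with CCl4 and 1668 with vehicle in knockout at 4 h (2.13 ± 0.38, adjusted p = 5.7e-06), and 3794 with CCl4 and 687 with vehicle in wild type (2.56 ± 0.38, adjusted p = 7.5e-08). At 7 days none of the 9 was called in either genotype.

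Plasmin cleaves several proMMPs, and 7 of 10 genes of plasminogen activation were higher at 12 h and at 24 h in both genotypes. Of all genes, 23.6% and 21.1% were higher in knockout at these times, and 29.0% and 26.2% in wild type. The summed level of the list was nevertheless lower with CCl4. At 12 h it was 80650 to 116125 in knockout CCl4 livers, against 148797 to 178366 in knockout vehicle livers. Wild-type livers at 12 h had 86188 to 111800 with CCl4, against 140961 to 188175 with vehicle. Plaur, the urokinase receptor, averaged 1639 with CCl4 and 20.1 with vehicle in knockout at 12 h (6.45 ± 0.60, adjusted p = 1.2e-13), and 1716 with CCl4 and 66.9 with vehicle in wild type (4.84 ± 0.54, adjusted p = 1.3e-11). Anxa2, a cell-surface plasminogen receptor, averaged 12762 with CCl4 and 363 with vehicle in knockout at 12 h (5.05 ± 0.36, adjusted p = 2.2e-18), and 16414 with CCl4 and 638 with vehicle in wild type (4.82 ± 0.32, adjusted p = 4.5e-20). Plg, the proenzyme of plasmin made by hepatocytes, fell by 1.56 ± 0.18 in knockout (adjusted p = 1.9e-10) and by 1.75 ± 0.17 in wild type at 12 h (adjusted p = 4.5e-14). Of 10 hepatocyte markers, 8 were lower in knockout and 9 in wild type at that time (23.1% and 29.4% of all genes). Their part in the fall of Plg was not tested.

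Among the 8 tested of 16 other MMP genes and Reck, a membrane-bound MMP inhibitor, Mmp28 was higher at all of the first 3 times. It averaged 116 with CCl4 and 13.2 with vehicle in knockout at 12 h (3.04 ± 0.50, adjusted p = 7.2e-07), and 120.4 with CCl4 and 14.4 with vehicle in wild type (3.20 ± 0.45, adjusted p = 8.2e-09). Mmp15, a membrane-type MMP, was lower in wild type at 24 h, at 409 with CCl4 and 841 with vehicle (-1.10 ± 0.31, adjusted p = 0.0025), and was not called in knockout at that time.

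Of 20 matrix substrates of MMPs, 6 were higher and 1 lower in knockout at 24 h (21.1% and 23.0% of all genes), and 5 were higher and none lower in wild type (26.2% and 25.0% of all genes). The higher ones in both genotypes included the basement membrane genes Nid1 (1.90 ± 0.28 in knockout, adjusted p = 1.3e-07, and 1.97 ± 0.28 in wild type, adjusted p = 3.6e-08), Lamc1 and Col4a1. At 12 h, 3 were higher and 2 lower in knockout (23.6% and 23.1% of all genes), and 2 higher and 11 lower in wild type (29.0% and 29.4% of all genes). Fn1, fibronectin, averaged 64689.7 with CCl4 and 174338 with vehicle in knockout at 12 h (-1.42 ± 0.32, adjusted p = 0.00021), and 52984 with CCl4 and 194880.0 with vehicle in wild type (-1.85 ± 0.29, adjusted p = 1.2e-07). Of 20 genes for the activation, clearance and surface binding of proteases, 3 were higher and 8 lower in knockout at 24 h, and 3 higher and 9 lower in wild type. Of 5 cholangiocyte markers, 2 were higher in knockout and 1 in wild type at 24 h. At 7 days no gene of these lists was called in either genotype.

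The genes whose levels ran most like each member were found by Pearson correlation over the 16 group means, which share libraries and depth; they are a description. Mmp13 was most like Tpm4 (r = 0.973), Alcam (0.968) and Necap2 (0.966), and Mmp12 most like Tceal9 (0.960), Thbs1 (0.953) and Tagln2 (0.953). For Mmp14 they were Klhl18 (0.959), Fbxo22 (0.943) and Pllp (0.937), for Mmp2 Scap (0.931), Slc39a5 (0.929) and C1s1 (0.928), and for Mmp9 Pdk3 (0.922), 6530402F18Rik (0.919) and Rasgrp4 (0.911). Mmp19 had the weakest likeness, with Cdcp1 (0.873), Pnrc2 (0.843) and Nhlrc1 (0.842). Timp1 was most like Septin5 (0.934), Plcl2 (0.929) and Saa3 (0.927), Timp2 most like Olfml3 (0.935), Rcn3 (0.933) and Cavin2 (0.920), and Timp3 most like Mtor (0.913), Vps13a (0.883) and Bhlhe40 (0.869). Between members, Mmp12 and Mmp13 had r = 0.849, Mmp9 and Timp1 0.717, and Mmp2 and Mmp12 -0.656 (-0.741 without wild-type CCl4 replicate 4 of 24 h). Without that library the values were 0.921 to 0.939 for the 3 genes most like Mmp2 and 0.879 to 0.940 for those most like Timp2. When the 16 groups were ordered by median, neighbours in that order had ranges apart in 1 of 15 pairs for Mmp12 and for Mmp13, and in 0 of 15 for each of the other 7.

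Some members overlap other genes on the opposite strand in GRCm38: Timp1 lies in Syn1 (median 21.3 normalized counts), Timp3 in Syn3 (21.8) and the end of Mmp19 meets Tmem198b (100.8). Mmp12 also overlaps Mmp1b and Mmp19 lies in Gm47093 on the opposite strand, and Timp2 holds Cep295nl on the same strand. These last genes were not among those of the deposited table. Overlaps are of whole gene spans, and whether exons overlap was not examined. The kit marks strand, and whether reads were counted by strand was not given, so how far reads of these pairs were mixed is not known.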

How the data were processed

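Livers of 80 mice were measured by stranded poly(A) RNA-seq. Per the submitters' processing notes, STAR, HTSeq and DESeq2 were used with GRCm38; versions and strand setting were not given in the sources used here. The authors deposited 1 table of normalized counts per gene and sample, a signal unit: all values were whole multiples of one value per library (tolerance 0.01), which gave the depths of 18.6 to 64.5 M reads. Levels are therefore gene counts divided by a size factor. Two-sided limma 3.58.1 (R 4.3.3) tests were run on log2(normalized count + 1), with 1 mean for each of 16 groups, 78 libraries, a variance trend, and a floor of 10 normalized counts reached in 5 or more libraries (14558 tested, all 9 genes among them, and 2 left out). P-values were adjusted by Benjamini-Hochberg over all genes within a comparison. Intervals are 95% and ranges run from the lowest to the highest library. The labels state separate mice. The 2 knockout libraries left out were kept in an alternative. The 9 genes and all gene lists were chosen with earlier results of these data known. The named genes are the 9, Adamts12, up to 4 called genes per list and comparison by adjusted p, and the 3 genes most alike for each. The mesothelial, stellate and fibroblast genes named for wild-type CCl4 replicate 4 of 24 h were chosen after their values were seen. The fit was tested on simulated data. Figures were drawn with matplotlib 3.10.9. Sequences are from RefSeq.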

Additional observations from a re-analysis of the deposited data

Results flagged for a closer look

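Dixon's criterion for a far value marks about 1 in 20 groups of normally distributed values. It was applied here to normalized counts without a log, so that rate may not hold. In 14 of 144 groups of values examined for the 9 genes, 1 liver lay far from the others of its group by this criterion. For Mmp2 these were 31.7 in wild-type vehicle replicate 3 at 12 h (others 73.9 to 83.1), 346 in wild-type CCl4 replicate 4 at 24 h (others 14.5 to 42.6) and 110.8 in knockout CCl4 replicate 2 at 4 h (others 50.4 to 65.4). The same libraries were high for Timp2 in the last 2 cases, with 2002 in wild-type CCl4 replicate 4 at 24 h (others 119.9 to 299) and 471 in knockout CCl4 replicate 2 at 4 h (others 275 to 297). Mmp9 was at 287 in wild-type vehicle replicate 2 at 12 h (others 34.6 to 107.5). Mmp12 was at 517 in knockout vehicle replicate 2 at 7 days (others 0.73 to 69.4), a liver whose macrophage markers summed to 26082 against 3714 to 16826 in the other 4. Mmp14 and Timp1 were highest in wild-type CCl4 replicate 4 at 4 h, at 1241 (others 915 to 1000.3) and at 66.3 (others 19.7 to 26.6). Timp1 and Timp3 were highest in wild-type vehicle replicate 5 at 24 h, at 886 (others 19.6 to 137) and at 702 (others 416 to 493). Timp1 was at 110.2 in knockout CCl4 replicate 3 at 7 days (others 12.0 to 35.3). Timp3 was at 964 in wild-type CCl4 replicate 2 at 4 h (others 647 to 709.6), and Mmp19 was at 4215 in knockout vehicle replicate 5 at 7 days (others 3354 to 3548).

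The 2 libraries left out held values above the other knockout vehicle livers of 12 h for 5 of their 18 member values. The one labelled vehicle, replicate 1, had 342 for Mmp12 (others 3.4 to 25.4), 139.6 for Mmp13 (others 2.3 to 7.2), 182 for Timp1 (others 5.7 to 104.9) and 735 for Timp3 (others 402 to 548). The one labelled CCl4, replicate 5, had 135.9 for Timp1 (vehicle livers 5.7 to 104.9), and its Mmp12 and Mmp13 were 12.5 and 2.5, below all other knockout CCl4 livers of that time (68.6 to 239 and 20.3 to 153).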

How the results depend on the processing

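Of 39 called changes of members, none changed sign. They kept their call in 483 of 532 fits without 1 library and in 281 of 297 fits under other settings. The remaining 49 and 16 lost it, in 10 and 15 of the changes. Quantile normalization moved the count of members called lower with CCl4 to 1 against 0 in wild type and in knockout at 4 h, to 0 against 1 in wild type at 24 h, and to 1 against 2 for the wild-type step from 4 h to 12 h. Fits on groups of the same time only gave 1 against 0 lower in knockout at 4 h, 0 against 1 lower in knockout at 24 h, and 1 against 0 higher in knockout than wild-type vehicle livers at 4 h. With all 80 libraries as labelled, 0 against 2 members were higher and 0 against 1 lower in knockout at 12 h; the step from 4 h to 12 h in knockout lost its 1 call (0), and that from 12 h to 24 h gained 2. All genes called there were 2397 against 6805. A pseudocount of 8, or a mean of at least 50, gave 1 against 0 higher for the knockout step from 12 h to 24 h. Without wild-type mice numbered below 7000, calls of members were lost in wild type at 24 h, in the steps to 24 h and to 7 days, and in the test over the 4 times. That fit leaves out 4 of the 5 wild-type vehicle livers of 24 h and 4 of the 5 wild-type CCl4 livers of 7 days. The loss of calls cannot be told apart from the loss of livers. Edge cases in single fits were the knockout steps to 12 h (0 to 1 higher) and to 24 h (0 to 2 higher), the wild-type steps to 7 days (0 to 2 higher) and to 12 h (1 to 4 lower), and members lower in knockout at 24 h (0 to 2) and 4 h (0 to 1) and in wild type at 24 h (0 to 3) and 4 h (0 to 1), over fits without 1 library. Of 48 changes that were not called, 16 turned sign in such fits: in knockout Mmp12 at 4 h (-0.11 to 0.57) and 7 days (-0.94 to 1.12), Mmp14 at 7 days (-0.086 to 0.10), Mmp9 at 12 h (-0.50 to 0.71), Timp1 at 4 h (-0.0083 to 0.60) and 7 days (-0.67 to 0.68), Timp2 at 24 h (-0.12 to 0.11) and 7 days (-0.27 to 0.14), and Timp3 at 4 h (-0.17 to 0.090) and 7 days (-0.20 to 0.13); in wild type Mmp12 at 7 days (-0.22 to 0.73), Mmp2 at 4 h (-0.32 to 0.060), Timp1 at 12 h (-0.57 to 0.99), and Timp2 at 24 h (-0.87 to 0.15), 4 h (-0.11 to 0.033) and 7 days (-0.027 to 0.19). Others turned sign for Timp1 in wild type at 24 h without the mice numbered below 7000 (-2.17), Mmp14 in knockout at 24 h with quantile normalization (0.061), and Mmp12 and Timp1 in knockout at 7 days with a pseudocount of 8 (-0.33 and -0.10) or quantile normalization (-0.059 and -0.056). The cause was not tested.

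A replicate block changed no count of members called and gave 6334 against 6349 genes in wild type at 4 h. Same-numbered livers did not deviate together: the median correlation of their deviations was -0.0056, against 0.00098 for other numbers, and the lowest couple had -0.404. Count tests in edgeR and DESeq2 on recovered reads were not run. The r values without wild-type CCl4 replicate 4 were added after seeing the data. Depth limits Mmp12 and Mmp13 in vehicle livers, where Mmp13 in all 5 knockout vehicle libraries at 24 h held 3 reads or fewer.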
